A study of Curvularia clavata with 15 samples.

Results

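The deletion mutants ΔCclaeA and Δtah-1 of the filamentous fungus Curvularia clavata were compared directly with each other, both on a lignosulfonate medium. The comparison took 6 of the 15 RNA-seq libraries of the series, 3 of each mutant, as the genotype and treatment labels give them. Each library listed FPKM, fragment counts scaled for transcript length and library size, for 10170 gene IDs. Of these, 9265 had at least 1 FPKM in at least 3 of the 15 libraries and were tested, and 425 IDs were listed at 0 in all 6 libraries of the mutants.

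All libraries came from mycelia of strain J1, harvested at day 4 from shaken Vogel's minimal medium. Both mutants, the Δrpn-4 mutant and the wild type (WT) were grown with 2% lignosulfonate and 0.25% glucose, and a second WT group was grown with 2% glucose and no lignosulfonate. Each of the 5 groups held 3 libraries. The labels give no promoter, marker or number of transformants for either deletion, and do not say whether replicates were separate cultures. The p-values rest on a spread between replicate libraries that was estimated over all 5 groups together. Part of that spread may therefore be technical. No source used here pairs the IDs with gene names, so genes are given by ID without a role, and the deleted genes were not identified. The genotype labels were for that reason not checked against the values.

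Lignosulfonate is a water-soluble, sulfonated form of lignin, the aromatic polymer of wood. LaeA is known from Aspergillus and other filamentous fungi as a nuclear, methyltransferase-like regulator of secondary metabolism, and its loss there silences many biosynthetic gene clusters. Such clusters, and some catabolic pathways of fungi, often lie as neighbouring genes that are switched together. The question here was in which genes the loss of CclaeA and the loss of tah-1 leave different transcript levels on the same substrate.

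The mutants differed in 28.2% of the tested IDs, in both directions, and some of the largest differences lay in neighbouring IDs. A block of 5 IDs, yc1106_01886 to yc1106_01890, was far higher in ΔCclaeA than in Δtah-1, with a median log2 difference of 7.97. Mean levels of the 5 in Δtah-1 ran from 0.32 to 31.7 FPKM. A block of 9 IDs, yc1106_02302 to yc1106_02310, was higher in Δtah-1, with a median log2 difference of -3.99. Of the IDs that WT held higher on lignosulfonate than on glucose, 28.9% were higher in Δtah-1 and 9.58% were higher in ΔCclaeA, beside 13.7% and 14.6% of all tested IDs.

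The libraries of the mutants differed in evenness and in how closely replicates matched. In ΔCclaeA the 3 libraries correlated at 0.993 in each pair on the log2(FPKM + 1) scale, and 37 to 50 tested IDs were at least 2-fold apart within a pair after scaling. In Δtah-1, replicates 1 and 3 correlated at 0.983 with 141 IDs at least 2-fold apart, whereas replicate 2 stood apart, with 744 IDs at least 2-fold apart from replicate 1 and 563 from replicate 3. Its FPKM sum was 946538, against 662880 and 700602 in replicates 1 and 3, and the ΔCclaeA sums lay between 816361 and 856197. The share of the FPKM sum taken by the 10 most abundant IDs was 11.6% ± 0.514 for ΔCclaeA and 7.83% ± 0.838 for Δtah-1 (SD, n = 3 each), with no overlap between libraries. The exact two-sided permutation p for this share was 0.1, the smallest that 3 against 3 libraries allow. The number of reads is unknown from FPKM, and relative depth estimated from the smallest steps of the low values was 0.970 to 1 in ΔCclaeA and 0.818 to 0.833 in Δtah-1, in units of ΔCclaeA replicate 1. Because replicate 2 of Δtah-1 stood apart, counts are also given without it, an alternative chosen after seeing the data.

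As deposited, 1962 IDs (21.2% of those tested) were higher in ΔCclaeA and 1265 (13.7%) were higher in Δtah-1, called at a limma adjusted p under 0.05 and a difference of at least 2-fold. After each library was divided by its median-of-ratios size factor, 1352 IDs (14.6%) were higher in ΔCclaeA and 1665 (18%) in Δtah-1. The share of calls higher in ΔCclaeA thus went from 60.8% to 44.8%, so which mutant held more of the higher calls depended on the scaling. The size factors were 1.14 to 1.18 in ΔCclaeA and 0.807, 1.21 and 0.869 in Δtah-1 replicates 1 to 3. The median log2 difference of all tested IDs, ΔCclaeA minus Δtah-1, was 0.21 as deposited and -0.05 after scaling, a shift of 0.26. No ID was called in opposite directions under the scalings.

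Under both scalings, 1352 IDs (14.6%) were higher in ΔCclaeA and 1265 (13.7%) were higher in Δtah-1, together 2617 IDs or 28.2%, and these are the calls used below. The 3 libraries of one mutant did not overlap the 3 of the other in 1349 of the 1352 and in 1254 of the 1265, which the call rule leaves little room to fail. Among all tested IDs the libraries did not overlap in 3612 (39.0%) higher in ΔCclaeA and 2349 (25.4%) higher in Δtah-1, as deposited. Without Δtah-1 replicate 2, 1182 and 1044 IDs were called, of which 1122 and 1015 were among the calls with all libraries, and none was called the opposite way. At the other end, 3403 IDs (36.7%) had a 95% interval of the difference that lay within 2-fold in either direction under both scalings. The remaining IDs were neither called under both scalings nor bounded within 2-fold, and they include 610 called as deposited only and 400 called after scaling only.

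**Figure D1:**
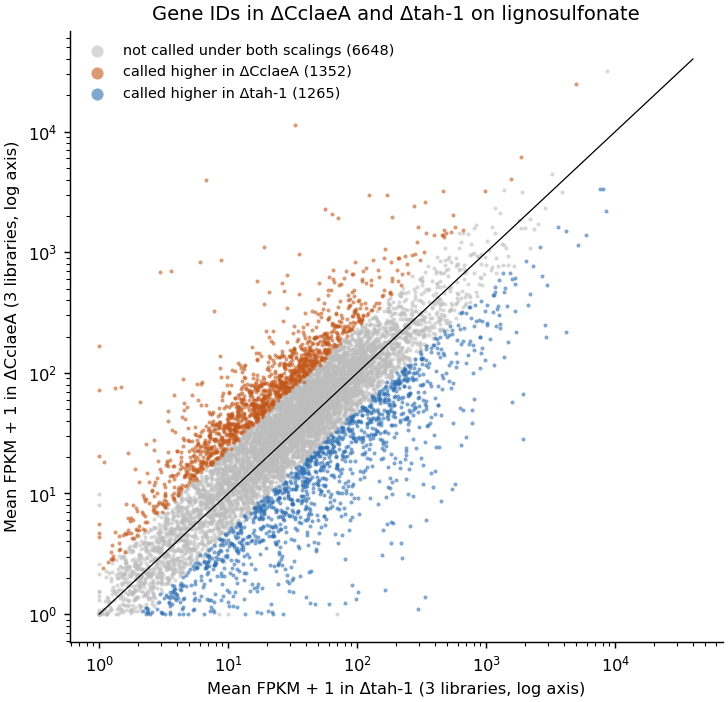
Mean FPKM + 1 of each tested gene ID in Δtah-1 (horizontal, log axis) and ΔCclaeA (vertical, log axis), 3 libraries each, as deposited; the line marks equal means. IDs called higher in ΔCclaeA under both scalings (1352) lie above the line and IDs called higher in Δtah-1 (1265) below it; the other tested IDs are grey.

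Among differences of at least 4-fold to at least 32-fold, more of the calls under both scalings lay on the Δtah-1 side. Differences of at least 4-fold were called under both scalings for 255 IDs higher in ΔCclaeA and 445 higher in Δtah-1, and differences of at least 16-fold for 25 and 56. At 32-fold the counts were 13 and 21, and at 64-fold 7 and 6. As deposited alone, 422 and 445 IDs passed 4-fold and 29 and 56 passed 16-fold. Without Δtah-1 replicate 2 the order at 4-fold as deposited turned to 441 and 379, while under both scalings 185 and 379 IDs passed 4-fold and 24 and 47 passed 16-fold.

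**Figure D2:**
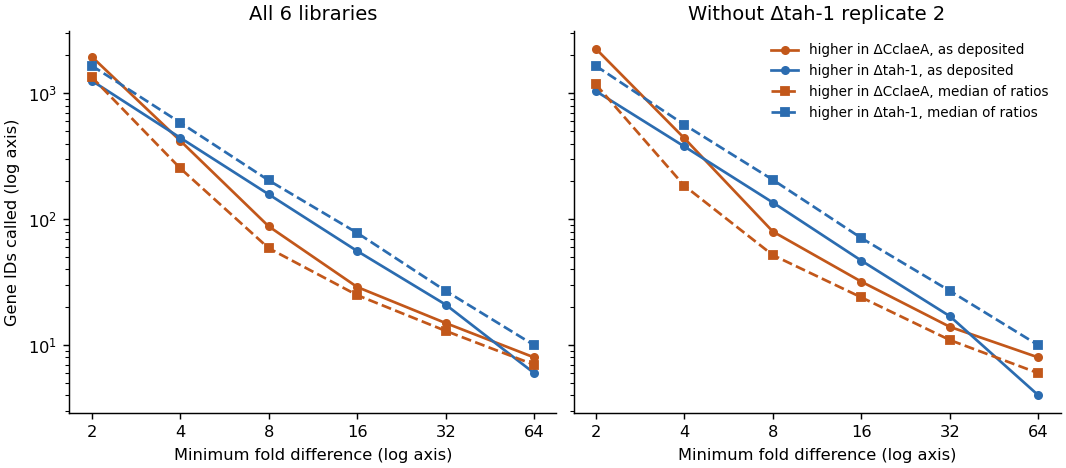
Number of gene IDs called (log axis) at increasing minimum fold difference (log axis), as deposited (solid) and after median-of-ratios scaling (dashed), with all 6 libraries (left) and without Δtah-1 replicate 2 (right). At the 2-fold minimum the order of the mutants changes with the scaling, 1962 against 1265 as deposited and 1352 against 1665 scaled; at 16-fold Δtah-1 is higher under either, 56 against 29 and 78 against 25.

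The ID with the largest difference toward ΔCclaeA was yc1106_01890. It had 3693, 4099 and 4155 FPKM in the ΔCclaeA libraries and 3.29, 8.06 and 5.81 FPKM in those of Δtah-1. The groups were far apart, and WT on lignosulfonate lay between them at 1344 ± 104 FPKM (SD, n = 3). The log2 difference was 9.28 (SE 0.197, limma adjusted p = 1.10e-13) as deposited and 9.01 (SE 0.141, limma adjusted p = 5.41e-15) after scaling.

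The neighbouring yc1106_01888 was also among the most abundant of the called IDs, with 11193, 11344 and 11520 FPKM in ΔCclaeA and 20.01, 53.2 and 22.1 in Δtah-1. All 3 ΔCclaeA libraries were above WT on lignosulfonate, at 4549 ± 122 FPKM, and all 3 Δtah-1 libraries were far below it. Its log2 difference was 8.58 (SE 0.259, limma adjusted p = 3.41e-12), and 8.29 after scaling.

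The most abundant ID called higher in ΔCclaeA was yc1106_09585, with 23060.02, 25507 and 25771 FPKM in ΔCclaeA and 3059.6, 7856 and 3872 in Δtah-1. WT on lignosulfonate ran from 23957 to 27146 FPKM, a range that held ΔCclaeA replicates 2 and 3, with replicate 1 just below it. Every Δtah-1 library was far lower, replicate 2 the least so. The log2 difference was 2.45 (SE 0.344, limma adjusted p = 1.66e-05) as deposited, 2.16 after scaling and 2.85 as deposited without Δtah-1 replicate 2.

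In the other direction, yc1106_02457 was listed at 0, 1.17 and 0 FPKM in ΔCclaeA and had 274.7, 332 and 387 FPKM in Δtah-1. No libraries of the mutants overlapped, which the rule for naming IDs required. WT on lignosulfonate had 58.4 ± 12.9 FPKM, between the mutants. The log2 difference was -7.99 (SE 0.451, limma adjusted p = 1.47e-09), and -8.11 after scaling. With ΔCclaeA at or near 0, the size of this difference depends on the pseudocount of 1 FPKM.

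The ID yc1106_01883 had 0, 0.25 and 0.08 FPKM in ΔCclaeA and 127, 559.6 and 192 FPKM in Δtah-1. Replicate 2 of Δtah-1 was the highest by far, yet each Δtah-1 library was above 100 FPKM, and WT on lignosulfonate had 1.3 ± 0.494. The log2 difference was -7.77 (SE 0.378, limma adjusted p = 3.27e-10), and -7.16 without that replicate. As ΔCclaeA was near 0, its size also depends on the pseudocount, and with 0.1 FPKM it was -10.34 as deposited.

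The 2 most abundant IDs called higher in Δtah-1 differed much less. In yc1106_08492 the ΔCclaeA libraries had 3704, 2975 and 3435 FPKM and the Δtah-1 libraries 5689, 9648 and 8703, a log2 difference of -1.22 (SE 0.205, limma adjusted p = 9.71e-05), or -1.51 after scaling. WT on lignosulfonate was below both mutants there, at 2168 ± 78.1 FPKM. In yc1106_06363 the values were 3261, 3194 and 3486 FPKM in ΔCclaeA against 7376, 9051 and 6376 in Δtah-1, a log2 difference of -1.18 (SE 0.184, limma adjusted p = 4.66e-05), or -1.47 after scaling. In neither ID did the libraries of the mutants overlap, which the rule for naming IDs required.

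**Figure D3:**
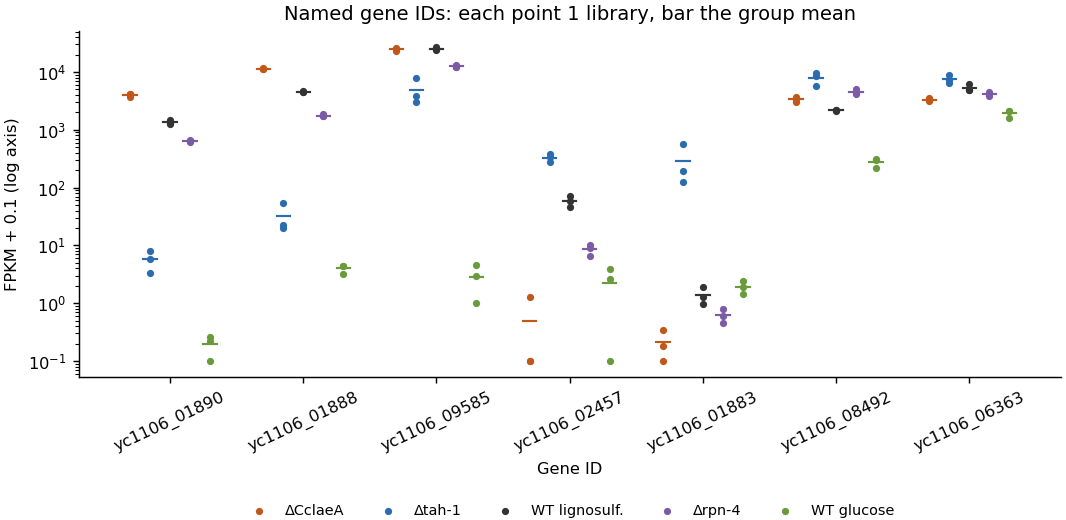
FPKM + 0.1 (log axis) of the 7 gene IDs chosen by size of difference or by level, in the 15 libraries; each point is 1 library and each bar a group mean. For yc1106_01890, yc1106_01888 and yc1106_02457 the WT libraries on lignosulfonate lie between the mutants, for yc1106_09585 they lie with ΔCclaeA, and for yc1106_08492 they lie below both.

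Some IDs were on in one mutant and off in the other, a comparison that does not depend on the pseudocount. At least 10 FPKM in all 3 libraries of one mutant and under 1 FPKM in all 3 of the other was found for 7 IDs on in ΔCclaeA and 22 IDs on in Δtah-1. All 29 were called under both scalings, which these limits leave little room to fail. The median level of the 22 IDs in Δtah-1 was 29.6 FPKM, with a range of 12.2 to 293, and their median in WT on lignosulfonate was 3.91. In WT, 13 of the 22 were higher on lignosulfonate than on glucose and 3 were lower, where 22.8% and 14.6% of all tested IDs were. Of all 1265 IDs called higher in Δtah-1, 609 were higher on lignosulfonate in WT and 196 were lower. The 7 IDs had a median of 71.3 FPKM in ΔCclaeA, with a range of 17.3 to 166, and a median of 8.33 in WT on lignosulfonate. Of these 7, 3 were higher on lignosulfonate in WT and none was lower. Without Δtah-1 replicate 2 the counts were 9 and 22.

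Some of the 7 IDs are described further, chosen after their values were seen. The ID yc1106_09907 had 71.6, 66.6 and 75.7 FPKM in ΔCclaeA and was listed at 0 in the libraries of Δtah-1, Δrpn-4 and WT, apart from 0.8 FPKM in replicate 2 of WT on glucose. It was thus detected at more than 1 FPKM in ΔCclaeA libraries alone. The same held for yc1106_07289, with 17.5, 19.0 and 15.5 FPKM in ΔCclaeA and under 1 FPKM in every other library. By contrast, yc1106_09232 had 154, 55.7 and 289 FPKM in ΔCclaeA and was listed at 0 in all 3 Δtah-1 libraries, but also in replicates 1 and 2 of both WT groups, whose replicates 3 had 515 and 998 FPKM. Zeros beside such high values within 1 group make its difference uncertain, and its SE on the log2 scale was 2.78. The ID yc1106_07218 is uncertain for a like reason. It had 0, 21.4 and 0 FPKM in WT on lignosulfonate, and the SE of its log2 difference was 1.18.

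As the deleted genes were not identified, IDs near 0 in 1 mutant and expressed in all other libraries were sought. No ID was under 1 FPKM in the 3 ΔCclaeA libraries and at least 10 FPKM in the other 12. For Δtah-1 there was 1, yc1106_06359, with 0.91, 0 and 0.54 FPKM there and 72.5, 71.3 and 81.0 in ΔCclaeA. Its levels ran from 308 to 319 FPKM in WT on lignosulfonate, from 11.0 to 14.98 in WT on glucose and from 914 to 1006 in Δrpn-4. The log2 difference between the mutants was 5.73 (limma adjusted p = 5.55e-12), and 5.44 after scaling. Whether it is the deleted gene was not tested. The search misses a deleted gene that was under 10 FPKM in any of the other 12 libraries. Finding no ID for ΔCclaeA therefore says nothing about that deletion.

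Many called IDs had consecutive numbers. No source used here says whether the numbering follows the genome. Of the 1352 IDs higher in ΔCclaeA, 521 (38.5%) had a neighbouring ID called the same way, against 25.7% of all tested IDs. Of the 1265 higher in Δtah-1, 545 (43.1%) had one, against 22.8%. These shares are descriptions without a test. Stretches of at least 4 consecutive IDs called the same way numbered 10 toward ΔCclaeA, with 47 IDs, and 18 toward Δtah-1, with 85 IDs. Without Δtah-1 replicate 2 there were 5 and 10, with 24 and 46 IDs, and 3 of the 10 and 6 of the 18 were found again whole. The number of stretches therefore rests on that library more than the number of calls does.

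The longest stretch was the 9 IDs from yc1106_02302 to yc1106_02310, all higher in Δtah-1. Their median was 10.1, 12.2 and 10.6 FPKM in the 3 ΔCclaeA libraries and 147, 489 and 198 FPKM in those of Δtah-1. WT on lignosulfonate had medians of 19.8, 18.5 and 19.0 FPKM, close to ΔCclaeA, and replicate 2 of Δtah-1 was the highest. The log2 differences of the 9 ran from -5.53 to -2.31 with a median of -3.99, or -4.26 after scaling, and all 9 calls were also made without replicate 2, with a scaled median of -3.88. The libraries of the mutants did not overlap in any of the 9, as in 1254 of the 1265 IDs called higher in Δtah-1. All 9 were higher on lignosulfonate than on glucose in WT, as were 22.8% of all tested IDs.

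The ends of this stretch differed in size. The first ID, yc1106_02302, had 37.3, 25.1 and 33.1 FPKM in ΔCclaeA and 147, 140.3 and 198 in Δtah-1, with a log2 difference of -2.31 (SE 0.168, limma adjusted p = 1.70e-08). Here WT on lignosulfonate, at 101 ± 15.9 FPKM, was nearer to Δtah-1 than to ΔCclaeA. The last, yc1106_02310, had 7.45, 7.18 and 8.33 FPKM in ΔCclaeA and 276.5, 772 and 297 in Δtah-1, with a log2 difference of -5.53 (SE 0.285, limma adjusted p = 5.92e-10). WT on lignosulfonate had 14.5 ± 2.16 FPKM there, nearer to ΔCclaeA. The block ended sharply on both sides: yc1106_02301 was called the other way, with means of 219.8 FPKM in ΔCclaeA and 64.1 in Δtah-1, and yc1106_02311 was not called, with 325 and 332.

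The stretch with the largest differences was the 5 IDs from yc1106_01886 to yc1106_01890, all higher in ΔCclaeA. Their median was 656, 714 and 686 FPKM in the ΔCclaeA libraries and 3.29, 8.06 and 5.15 in those of Δtah-1, and 361.5, 350.6 and 348.7 in WT on lignosulfonate. WT thus lay between the mutants, nearer to ΔCclaeA. The 5 log2 differences ran from 5.41 to 9.28 with a median of 7.97, or 7.74 after scaling, and all 5 calls were also made without Δtah-1 replicate 2. The first of them, yc1106_01886, had 69.9, 77.5 and 74.3 FPKM in ΔCclaeA and 0.32, 0.49 and 0.16 in Δtah-1, and was listed at 0 in every library of WT on glucose. All 5 were higher on lignosulfonate in WT, as were 22.8% of all tested IDs.

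The IDs beside this block went the other way. On the lower side, yc1106_01883 and yc1106_01884 were higher in Δtah-1, with log2 differences of -7.77 and -1.96, while yc1106_01885 was below the expression filter. On the upper side, yc1106_01891 and yc1106_01892 were higher in Δtah-1 as well, with log2 differences of -2.29 and -1.90. Their levels were low, with Δtah-1 means of 13.6 and 9.46 FPKM and ΔCclaeA means of 1.98 and 1.78. Farther out, yc1106_01881 was higher in ΔCclaeA, with a log2 difference of 2.39, and yc1106_01882 and yc1106_01893 were not called.

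**Figure D4:**
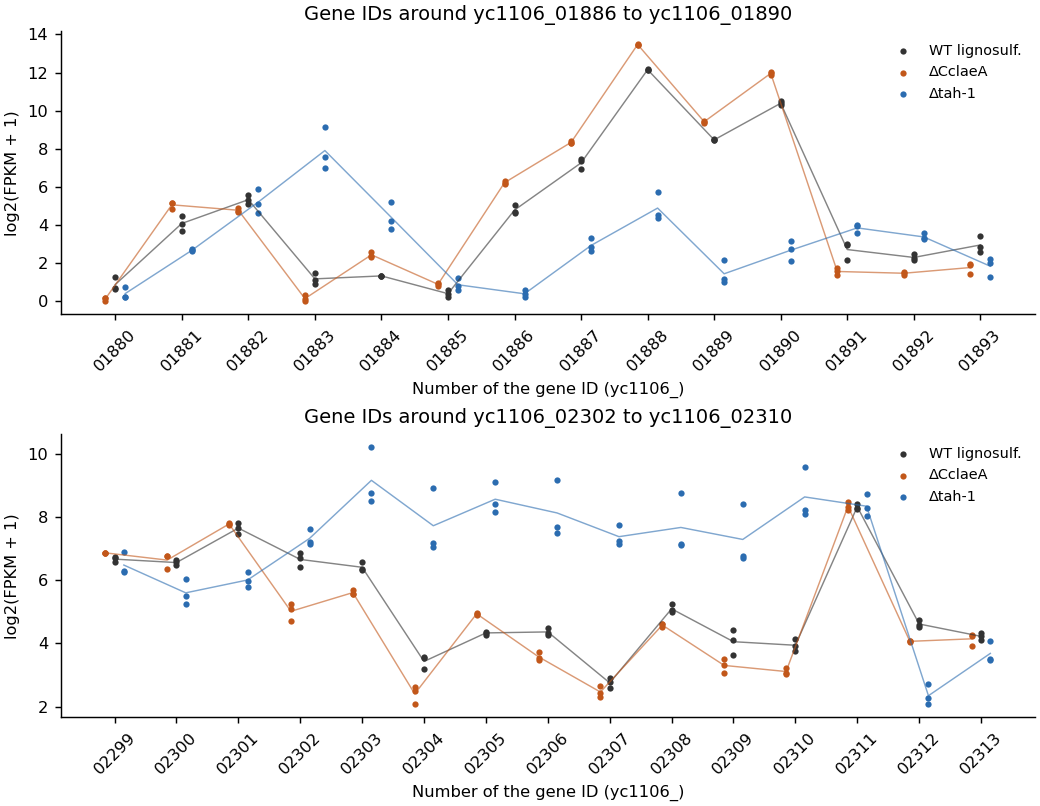
Values on the log2(FPKM + 1) scale against the number of the gene ID for the IDs around yc1106_01886 to yc1106_01890 (top) and around yc1106_02302 to yc1106_02310 (bottom), as deposited; points are libraries and lines join group means of WT on lignosulfonate, ΔCclaeA and Δtah-1. In the upper panel Δtah-1 lies below the other groups at the 5 IDs and above them at yc1106_01883, and in the lower panel Δtah-1 lies above the other groups at the 9 IDs.

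The other long stretches had smaller differences. The 6 IDs from yc1106_09585 to yc1106_09590 were higher in ΔCclaeA by a median log2 difference of 2.00, or 1.72 after scaling, and spanned a wide range of levels, with ΔCclaeA means from 7.08 to 24779 FPKM. The last of them, yc1106_09590, had 108.3, 109 and 109 FPKM in ΔCclaeA and 36.6, 40.6 and 31.9 in Δtah-1, a log2 difference of 1.56 (SE 0.110, limma adjusted p = 1.26e-08). The Δtah-1 libraries were the low ones, and WT on lignosulfonate had 109 ± 4.02 FPKM, level with ΔCclaeA. All 6 calls of this stretch were also made without Δtah-1 replicate 2.

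The 6 IDs from yc1106_03988 to yc1106_03993 were higher in ΔCclaeA by a median log2 difference of 1.38, or 1.09 after scaling, close to the 2-fold limit, and 3 of the 6 calls were made without Δtah-1 replicate 2. At the first, yc1106_03988, the ΔCclaeA libraries had 60.9, 57.3 and 62.6 FPKM and the Δtah-1 libraries 11.9, 13.7 and 9.41, with WT on lignosulfonate at 34.4 ± 7.23. At the last, yc1106_03993, they had 120.2, 95.03 and 95.5 against 41.0, 34.4 and 42.3, with WT at 99.6 ± 13.4. WT lay between the mutants at the former and with ΔCclaeA at the latter.

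Toward Δtah-1, the 6 IDs from yc1106_04332 to yc1106_04337 had a median log2 difference of -2.11, or -2.33 after scaling, at mostly low levels. The first, yc1106_04332, had 0.35, 0.73 and 0 FPKM in ΔCclaeA and 1.68, 3.75 and 3.17 in Δtah-1, while the last, yc1106_04337, had 24.0, 26.7 and 21.5 against 104, 111 and 133. The 6 IDs from yc1106_00630 to yc1106_00635 had a median of -1.67, or -1.94 after scaling. The first of these, yc1106_00630, had 6.19, 4.43 and 6.79 FPKM in ΔCclaeA and 9.48, 31.8 and 12.1 in Δtah-1, and without Δtah-1 replicate 2 its log2 difference as deposited was -0.80, under the 2-fold minimum. The last, yc1106_00635, had 578, 579.9 and 589 FPKM against 1229, 1001 and 1506. In each of these 2 stretches 5 of the 6 calls were also made without that replicate.

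The mutants also differed in how the IDs that respond to the medium in WT were placed. The classes came from the 6 WT libraries, which are in neither arm of the comparison, and lignosulfonate and lower glucose cannot be told apart in them. The WT files name their unit in the header and the mutant files do not, and no source used here says whether both kinds were made in one run of the processing. In WT, 2108 IDs (22.8% of those tested) were higher on lignosulfonate and 1354 (14.6%) were lower, under both scalings.

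Of the 2108 IDs higher on lignosulfonate, 609 (28.9%) were higher in Δtah-1 and 202 (9.58%) were higher in ΔCclaeA, beside 13.7% and 14.6% of all tested IDs. Their median log2 difference, ΔCclaeA minus Δtah-1, was -0.28 as deposited and -0.54 after scaling, beside 0.21 and -0.05 for all IDs. For the 289 IDs at least 16-fold higher on lignosulfonate, 105 (36.3%) were higher in Δtah-1 and 49 (17.0%) in ΔCclaeA. Without Δtah-1 replicate 2, 507 (24.1%) of the 2108 were higher in Δtah-1 and 201 in ΔCclaeA, beside 11.3% and 12.8% of all tested IDs.

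The IDs that were lower on lignosulfonate in WT were split more evenly. Of the 1354, 236 (17.4%) were higher in ΔCclaeA and 196 (14.5%) in Δtah-1, with median log2 differences of 0.20 as deposited and -0.02 after scaling, near those of all IDs. Of the 125 IDs at least 16-fold lower on lignosulfonate, 24 (19.2%) were higher in ΔCclaeA and 31 (24.8%) in Δtah-1, the other order. Of the 5189 IDs not called between the media in WT under either scaling, 819 (15.8%) were higher in ΔCclaeA and 399 (7.69%) in Δtah-1. No test of these shares against one another was made.

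**Figure D5:**
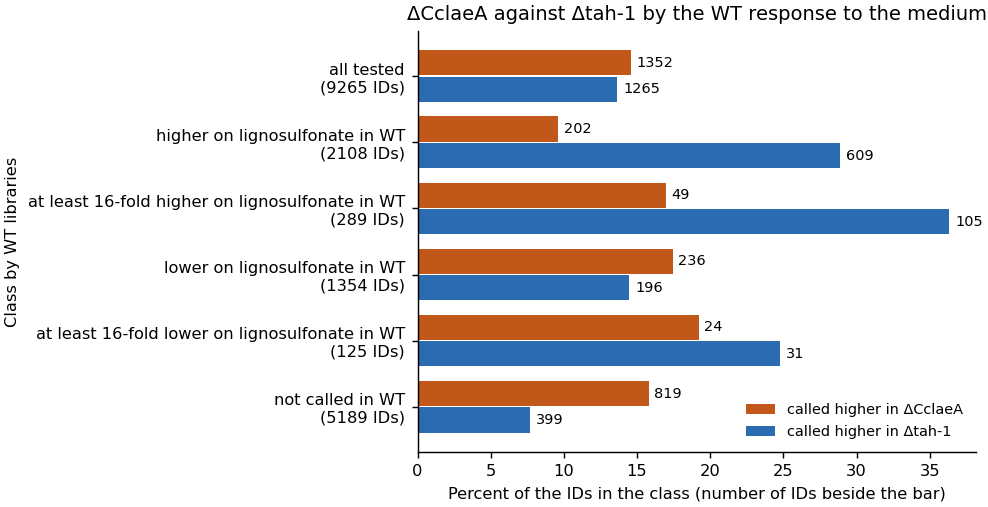
Percent of gene IDs called higher in ΔCclaeA (orange) and higher in Δtah-1 (blue) under both scalings, for all tested IDs and for classes set by the WT libraries; the number of IDs stands beside each bar. Among the 2108 IDs higher on lignosulfonate in WT, 609 were higher in Δtah-1 and 202 in ΔCclaeA.

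Levels in WT on lignosulfonate showed on which side of the wild type each mutant lay. For 1183 of the 1352 IDs higher in ΔCclaeA (87.5%), the scaled WT mean was between the means of the mutants, and it was above both in 116 and below both in 53. Median scaled levels of these IDs were 57.6 FPKM in ΔCclaeA, 34.0 in WT and 18.3 in Δtah-1. For the 1265 IDs higher in Δtah-1, the WT mean was between the mutants in 1039 (82.1%), with medians of 11.6 FPKM in ΔCclaeA, 22.5 in WT and 58.5 in Δtah-1. For both sets the WT median thus lay between those of the mutants. WT was between the mutants for 56.4% of all tested IDs, and choosing IDs by a large difference favours that place, so these shares test nothing. With values as deposited the shares were 86.0%, 81.2% and 53.0%.

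The most abundant transcripts of the mutants overlapped in part. Of the 10 IDs highest on average in each mutant, 4 were in common, and of the 100 highest 39 were. Of the 75 tested IDs with a mean of at least 1000 FPKM over the 6 libraries, 20 (26.7%) were higher in ΔCclaeA and 22 (29.3%) in Δtah-1, beside 14.6% and 13.7% of all tested IDs. Without Δtah-1 replicate 2 the order there turned, to 20 (26.7%) and 18 (24.0%). Among the 1708 IDs with a mean from 100 to 1000 FPKM, 261 (15.3%) were higher in ΔCclaeA and 328 (19.2%) in Δtah-1. Among the 5691 IDs with a mean from 10 to 100 FPKM, 914 (16.1%) and 655 (11.5%) were called, and among the 1583 with 1 to 10 FPKM, 155 (9.79%) and 250 (15.8%). More of the calls were higher in ΔCclaeA from 10 to 100 FPKM and more were higher in Δtah-1 in the bins on either side of it, also without that replicate. Values below 10 FPKM are compressed most by the pseudocount, which limits the calls there.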

How the data were processed

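RNA-seq of C. clavata mycelia was used, 1 file of values per library. The deposited values are FPKM, per the file headers of the 6 WT libraries; those of the 9 mutant libraries give none, but their values look alike in form and range. Per the submitters' processing notes, the tools included HISAT2 2.1.0, RSEM 1.3.3, fastp 0.19.5 and DESeq2, with no roles stated. Genome build and annotation were not given in the sources used here. As FPKM is relative to each library's total, abundant transcripts lower all other values. Read counts were not used and no count model was run.

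Gene IDs with at least 1 FPKM in at least 3 of 15 libraries were kept, and log2(FPKM + 1) was fitted with limma 3.58.1 in R 4.3.3 (trend and robust options, a mean per group, all 15 libraries sharing one estimate of the spread). A fold difference is on this scale, which understates that of low values. Benjamini-Hochberg adjustment ran over all tested IDs, and calls needed an adjusted p under 0.05 and at least 2-fold. The fit was repeated after division by median-of-ratios size factors from the 8806 tested IDs above 0 in all libraries. The scripts for the fit were tested on simulated data. Relative depth came from steps of values between 0.08 and 0.6 FPKM, which the rounding to 2 decimals limits. At most 0.853% of values were identical within a replicate pair of either mutant, so all replicates were counted.

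Named IDs were called under both scalings with libraries not overlapping: the 2 with the largest difference and the 2 with the highest mean in each direction, and the first and last of the 3 longest stretches in each direction. Other IDs printed were chosen after their values were seen. The comparison, the rule, the tests and the alternatives were chosen with earlier results of these data known. Gene group counts and sequences were not run or printed, since no table pairing IDs with products was used here. Alternatives were a pseudocount of 0.1, no filter, TPM, the 6 libraries alone, a replicate block, a minimum of 4-fold or none, and leaving out each replicate. Python 3.11.15 with NumPy 2.4.6, pandas 2.3.3, SciPy 1.17.1 and matplotlib 3.10.9 was used for the rest.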

Additional observations from a re-analysis of the deposited data

How the results depend on the processing

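Counts below are IDs higher in ΔCclaeA and higher in Δtah-1. The minimum fold moved them most. With a minimum of 4-fold they were 422 and 445 as deposited, 255 and 587 with median of ratios, and 255 and 445 under both; with no minimum fold they were 3629 and 2238, 2980 and 3300, and 2980 and 2238. Leaving out each replicate gave 1796 to 2269 and 1044 to 1418 as deposited, 1182 to 1442 and 1645 to 1697 after scaling, and 1182 to 1442 and 1044 to 1418 under both; the lowest of both mutants under both scalings came without Δtah-1 replicate 2. A pseudocount of 0.1, no filter and the 6 libraries alone kept every count within 1.5 times. TPM gave 1688 and 1475. The pseudocount of 0.1 moved the log2 difference as deposited from -7.99 to -10.46 for yc1106_02457 and from -7.77 to -10.34 for yc1106_01883. With the 6 libraries alone, yc1106_01890 as deposited had an SE of 0.263 and a limma adjusted p of 5.47e-07. With all 15 libraries these were 0.197 and 1.10e-13. The pooled spread covers groups that differed: the median coefficient of variation as deposited was 7.40% in ΔCclaeA and 26.4% in Δtah-1. Of 175 log2 differences of the 7 IDs named by size or level under these alternatives, none reversed and 4 lost the call. Those 4 were of yc1106_06363 and yc1106_08492 under the 4-fold minimum. The 7 IDs were chosen from these same data for a large difference or a high level without overlap. Some alternatives, such as the minimum fold, cannot change a log2 difference, so the lack of reversals tests little.

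Deviations of same-numbered libraries correlated weakly, at 0.05, 0.07 and -0.11, and ΔCclaeA replicate 1 correlated best with Δtah-1 replicate 3, at 0.14. These few values gave no sign of pairing by replicate number. They cannot show whether same-numbered libraries were handled together. With the replicate number as a block, 1964 and 1267 IDs were called as deposited and 1352 and 1668 scaled.

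Of 24 further counts recomputed without Δtah-1 replicate 2, the 2 numbers of stretches moved by more than 1.5 times, to 5 and 10. FPKM hides the depth, so the precision of low values is unknown.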

Other observations

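The 9 IDs from yc1106_02302 to yc1106_02310 and the 5 from yc1106_01886 to yc1106_01890 also had values in Δrpn-4, which is in neither arm. The medians of the 9 were 24.9, 23.7 and 23.6 FPKM in the Δrpn-4 libraries, and those of the 5 were 182, 181.3 and 184 FPKM. As deposited, Δrpn-4 was thus below every Δtah-1 library for the 9 and above every Δtah-1 library for the 5.

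Within the 6 IDs from yc1106_00630 to yc1106_00635, yc1106_00632 stood apart from its neighbours in Δrpn-4, a choice made after its values were seen. Its mean was 8475 FPKM there, against 961 in WT on lignosulfonate, and the libraries had 39.3, 20.9 and 31.7 FPKM in ΔCclaeA and 232, 141 and 146 in Δtah-1. Both mutants were thus below WT, ΔCclaeA the most.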
